A study of Homo sapiens with 4 samples.

Results

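Gene expression in a HEK293 clone making the autoimmune regulator AIRE (AIRE1) was set against that in a HEK293 line making AIRE with the D312A change in its first PHD finger (AIRE-D312A). HEK293 is a human embryonic kidney cell line. The comparison used 6 of the 12 arrays of the series, 3 per line, chosen by their labels and paired by replicate number. The AIRE1 line carried unmutated AIRE and was derived from 1 clone, and AIRE-D312A was likewise a single stable line. A second clone with unmutated AIRE (AIRE2) and a control line making yellow fluorescent protein (NC) gave the level of each gene in cells that were not part of the comparison. All 4 transgenes were driven by the cytomegalovirus immediate-early promoter and were therefore expressed outside the cell type in which AIRE normally acts. Each line was studied in 3 independent experiments. The p-values therefore measure the spread between experiments with the same line, and an effect of the D312A change cannot be told apart from any other difference between these particular lines.

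AIRE normally works in the nuclei of epithelial cells in the thymic medulla. There it turns on many genes that are otherwise restricted to other tissues, so that developing T cells meet their products. Its first PHD finger binds the tail of histone H3 when lysine 4 carries no methyl group, and the aspartate that D312A replaces with alanine takes part in that contact. People who lack working AIRE develop the autoimmune disease APECED. The contrast of AIRE1 with AIRE-D312A bears on which transcripts differ between cells with an intact and with an altered finger.

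The mean intensity of the 12 arrays lay between 245.6 and 324.3. Of 48701 probes, 16704 to 17288 were detected on the AIRE1 arrays and 15948 to 16812 on the AIRE-D312A arrays (detection p under 0.01). The 3 arrays per line limit the precision. Among markers of the HEK293 line, the nephron regulator LHX1 was detected on all 3 AIRE1 and all 3 AIRE-D312A arrays, and 20 and 17 of 32 neuronal and filament genes were detected on all arrays of AIRE1 and of AIRE-D312A. PAX2, a kidney regulator, was detected on none of these 6 arrays and SALL1 on 1 of 3 in each line. SIX2, of nephron progenitors, was detected on 1 AIRE1 array and on all 3 AIRE-D312A arrays. The detection values deposited with AIRE-D312A replicate 3 were those of another array and were not used, so detection on that array rests on a limit predicted from its own intensities. Levels below are log2 of background-corrected, quantile-normalised intensities, differences are AIRE1 minus AIRE-D312A on that scale.

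The transgene transcript was examined first. AIRE stood at 9.03, 8.66 and 9.01 on the AIRE1 arrays (replicates 1 to 3), against 8.24, 8.25 and 8.44 on the AIRE-D312A arrays. Each AIRE1 array lay above every AIRE-D312A array. The difference was 0.59 ± 0.14 (SE), which limma called at adjusted p = 0.0214 with the replicate number as a block and did not call without it (adjusted p = 0.141). It was also not called when AIRE1 replicate 1, 2 or 3 or AIRE-D312A replicate 1 or 3 was left out (0.51 to 0.64, adjusted p = 0.0537 to 0.11). The AIRE2 level was 8.51 ± 0.40 (SD, n = 3), between the 2 lines, and AIRE was not detected in NC (4.44 ± 0.10). The other AIRE probe gave no detected signal on the 12 arrays. AIRE protein was not measured here.

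Of 11947 genes tested, 708 were higher in AIRE1 than in AIRE-D312A (5.93%) and 462 lower (3.87%), by limma with Benjamini-Hochberg adjustment over all genes (adjusted p under 0.05). A 2-fold difference or more was called for 67 higher genes (0.561%) and 18 lower genes (0.151%). These counts were 27 and 4 without background correction, 25 and 4 with normexp run without negative controls at an offset of 50, and 31 and 14 among probes detected on all 6 arrays. The called differences were mostly small, with a median size of 0.45 and quartiles of 0.36 and 0.59. Every called gene differed in the same direction in all 3 pairs of arrays, and the arrays of the 2 lines did not overlap for 592 of the higher and 385 of the lower genes. Both properties are largely set by the calls, which were made on these same arrays, and are no separate support for them. The arrays of all tested genes failed to overlap in 20.7%. Without the replicate block limma called 187 genes higher (1.57%) and 93 lower (0.778%), all of them among the genes above. Centring each array on its median in place of quantile normalisation moved the median of all genes to 0.06 and gave 633 higher and 104 lower genes, so that higher genes made up 85.9% of all calls with median centring and 60.5% with quantile normalisation. Leaving out 1 array gave 408 higher genes without AIRE1 replicate 2, and 470, 407 and 423 without AIRE1 replicate 3 and AIRE-D312A replicates 1 and 3. The lower genes numbered 257, 294 and 291 without AIRE1 replicates 1, 2 and 3, and 256 and 247 without AIRE-D312A replicates 1 and 3. Of the genes named below, KCNRG, HBD, BCL2 and SPRY1 were not called when any 1 of the 6 arrays was left out. TNFRSF11B, IL23A, SKI, DEAF1, DKK1, WNT2B, HOXB6, HOXC8, MSX2, DHRS3, RDH10 and FGFR4 were not called in 4 or 5 of these 6 settings.

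Some called genes were detected on only part of the arrays of their dimmer line, so that the sizes of their differences rest partly on values below the detection limit. Of the higher genes named below, ADGRB3, CLDN3, CPXM1, HLA-DRA, IFI16, STMN2 and TNFRSF11B were detected on 1 AIRE-D312A array, and ALDH1A1, DCN, LEFTY2, SPARC, TEX14 and WNT2B on 2. Of the lower genes, SIX2 and TNFRSF10A-DT were detected on 1 AIRE1 array.

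**Figure D1:**
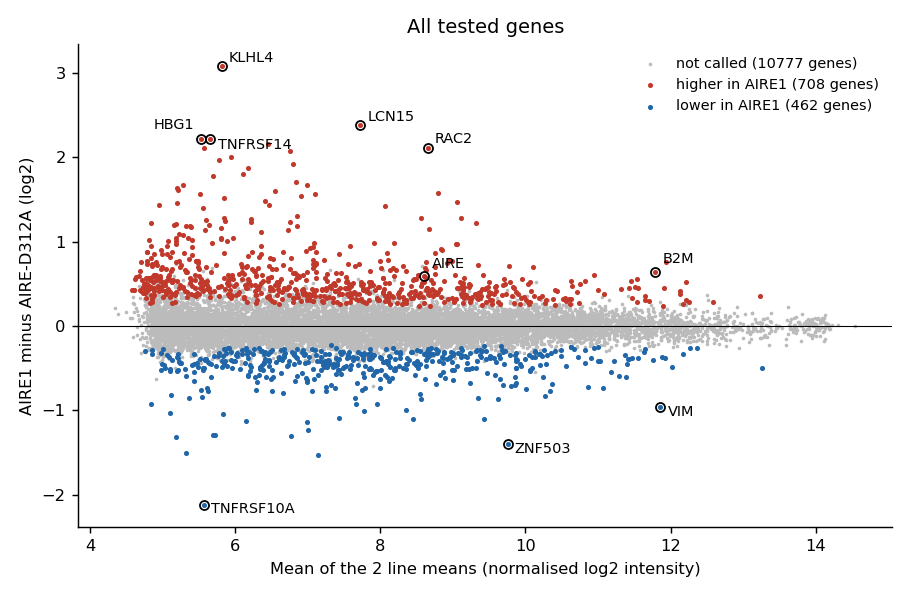
Each point is 1 of 11947 genes, with the mean of the AIRE1 and AIRE-D312A line means on the horizontal axis (log2 intensity) and AIRE1 minus AIRE-D312A on the vertical axis (log2). The 708 higher genes (red) reach a fitted 3.08 (KLHL4) and the 462 lower genes (blue) a fitted -2.12 (TNFRSF10A), each against a line in which no array detected the gene, and the circled genes are described in the text.

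KLHL4, an X-linked gene of the kelch family, differed most. It stood at 7.65, 6.88 and 7.53 in AIRE1 and at 4.32, 4.25 and 4.25 in AIRE-D312A, where it was not detected on any array. KLHL4 was at least 5.5-fold higher in AIRE1 (adjusted p = 4.12e-07). Its level was 6.97 in NC and 5.03 in AIRE2, so NC lay near AIRE1 and AIRE2 nearer to AIRE-D312A. LCN15, a lipocalin, stood at 8.91, 9.05 and 8.78 in AIRE1 and at 6.63, 6.50 and 6.47 in AIRE-D312A, a difference of 2.38 ± 0.15 (SE; adjusted p = 3.17e-06). Here AIRE2 lay with AIRE1 (9.29) and NC with AIRE-D312A (6.31). HSPB8, a small heat shock protein, was higher by 2.16 ± 0.21, with 7.76, 7.06 and 7.76 in AIRE1 and 5.43, 5.18 and 5.48 in AIRE-D312A (adjusted p = 6.32e-05). RAC2, a small GTPase best known from blood cells, stood at 9.84, 9.22 and 10.07 in AIRE1 and at 7.66, 7.15 and 7.98 in AIRE-D312A. For both HSPB8 and RAC2 replicate 2 was the lowest array in both lines, and the arrays of AIRE1 and AIRE-D312A did not overlap. The RAC2 level in AIRE2 (8.53) and NC (8.44) lay between the 2 lines. The microtubule-associated gene MAP7D2 was 2.07 ± 0.15 higher, the metallocarboxypeptidase-like gene CPXM1 1.96 ± 0.10, the surface antigen gene LY6G6D 1.88 ± 0.08, the membrane gene TMEM47 1.81 ± 0.13 and the neurotensin gene NTS 1.71 ± 0.14 (adjusted p between 4.12e-07 for LY6G6D and 2.76e-05 for NTS). MAP7D2 was also high in NC (7.12), whereas LY6G6D and TMEM47 stood at 4.37 and 4.68 there.

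Among lower genes, TNFRSF10A, which encodes a death receptor for the ligand TRAIL, led in size. It stood at 4.58, 4.49 and 4.45 in AIRE1, where no array detected it, against 6.65, 6.58 and 6.66 in AIRE-D312A. The level was at least 3.5-fold lower in AIRE1 (adjusted p = 4.12e-07), and AIRE2 (7.05) and NC (6.57) resembled AIRE-D312A. Its divergent neighbour TNFRSF10A-DT was also lower, by 1.51 on the log2 scale, with AIRE2 at 6.64 and NC at 6.42. ZNF503, a zinc finger regulator, stood at 9.15, 9.34 and 8.67 in AIRE1 and at 10.63, 10.68 and 10.05 in AIRE-D312A (-1.40 ± 0.12, adjusted p = 3.13e-05). Also lower were C10orf41 (-1.54), the kelch gene KLHL35 (not detected in AIRE1, at least 2.03-fold), PTCHD1 (-1.31), DERL3, which acts in degradation from the endoplasmic reticulum (-1.29), LOXL3, a lysyl oxidase (-1.29), and RAMP1, a partner of the calcitonin-like receptor (-1.23). The glutamate transporter SLC1A3 stood at 8.75, 8.80 and 9.08 in AIRE1 and at 10.07, 9.88 and 9.99 in AIRE-D312A (-1.10 ± 0.11, adjusted p = 6.36e-05). SLC1A3 lies in a chromosome 5 stretch described below in which 60 of 96 genes were lower. The LIM protein gene CSRP1 (-1.13 ± 0.17) was lower in AIRE1 than in AIRE-D312A, yet its level in NC was lower still (5.58 ± 0.17 in AIRE1, 6.71 ± 0.33 in AIRE-D312A and 4.85 ± 0.26 in NC, SD, n = 3 each). Monoamine oxidase A (MAOA, -1.10), the matrix proteoglycan VCAN (-1.0) and NELL1 (-1.05) fell with the block but were not called without it (adjusted p = 0.105, 0.104 and 0.401).

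**Figure D2:**
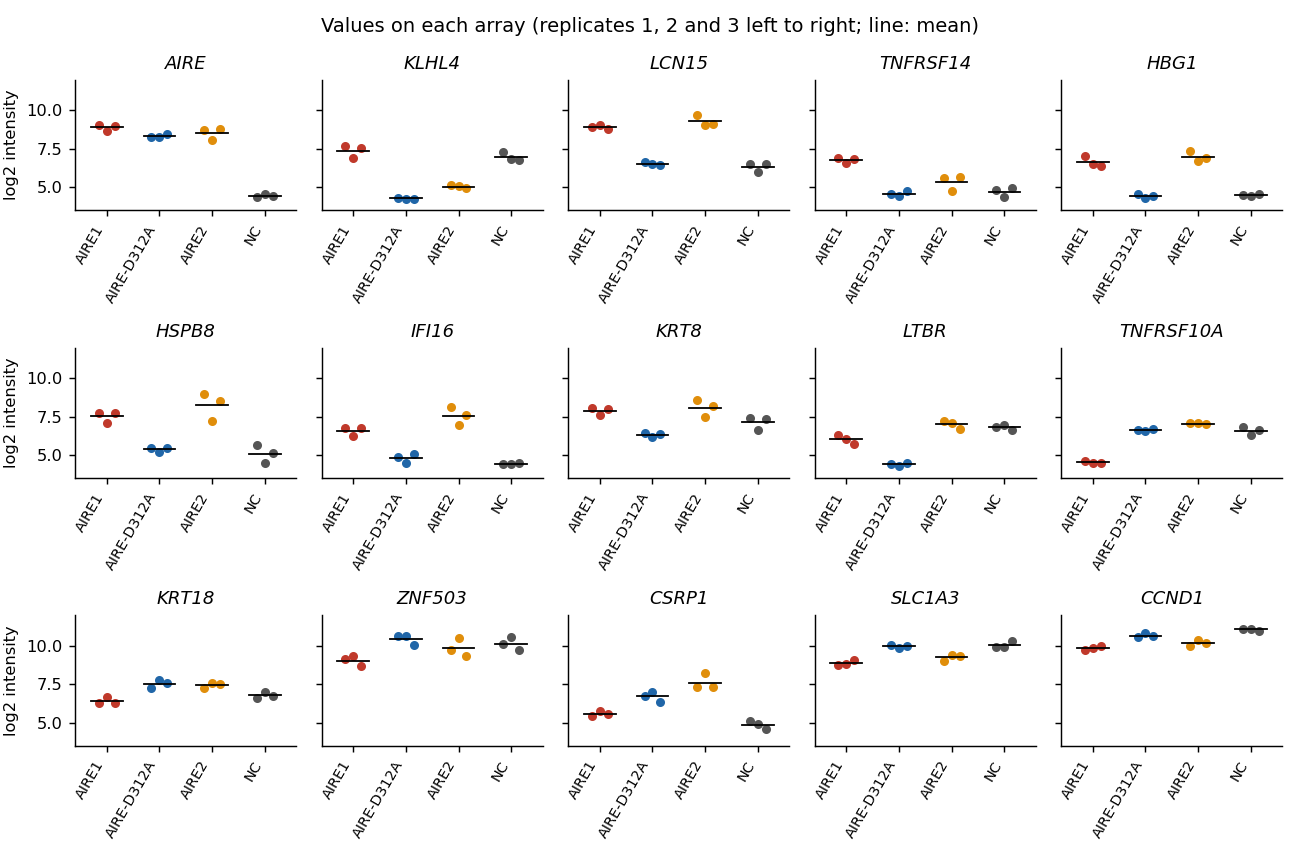
Normalised log2 intensity on each of the 12 arrays for 15 genes, with replicates 1 to 3 from left to right in each line and the line mean as a bar. KLHL4 is low in AIRE-D312A (4.25 to 4.32) and TNFRSF10A is low in AIRE1 (4.45 to 4.58), whereas for LCN15, HBG1, HSPB8 and IFI16 the AIRE1 and AIRE2 arrays lie high and the AIRE-D312A and NC arrays low.

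The genes were also sorted by detection. On all 3 AIRE1 arrays and no AIRE-D312A array, 130 genes were detected, of which 80 were called higher. The reverse held for 10 genes, of which 7 were called lower. Of the 130 genes, 34 were detected on all 3 AIRE2 arrays and 27 on none, and 91 were detected on no NC array. With the largest bounds after KLHL4 stood TNFRSF14 (at least 3.66-fold), the fetal globin genes HBG1 (3.34-fold) and HBG2 (3.3-fold), and the hair follicle keratin gene KRT27 (2.32-fold). HBG1 stood at 7.02, 6.53 and 6.36 in AIRE1 and at 4.58, 4.29 and 4.40 in AIRE-D312A. Because HBG1 and HBG2 are near-identical, their probes may read each other's transcripts. In the other direction, after TNFRSF10A and KLHL35, MATK, a tyrosine kinase gene, was at least 1.73-fold, the RNA helicase gene DDX19B 1.62-fold and the phosphatase gene MTMR7 1.4-fold lower in AIRE1. These counts depend on the limit: at a detection p under 0.05 they were 58 and 3. Bounds among the 130 genes went down to 1-fold, and some genes had no bound. In each pair the AIRE1 array also detected more probes in all (16704 to 17288 against 15948 to 16812). The part of this in the counts was not tested.

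The levels of the other lines differed between genes. Among the 67 genes at least 2-fold higher in AIRE1, a set that depends on the background correction as given above, the NC mean lay nearer to AIRE1 for 9 and nearer to AIRE-D312A for 58. The AIRE2 mean lay nearer to AIRE1 for 46 and nearer to AIRE-D312A for 21. Among the 18 genes at least 2-fold lower, NC lay nearer to AIRE1 for 7 and nearer to AIRE-D312A for 11, and AIRE2 nearer to AIRE1 for 10 and to AIRE-D312A for 8. Over all 708 higher genes the median level relative to NC was 0.43 in AIRE1, -0.07 in AIRE-D312A and 0.26 in AIRE2. For the 462 lower genes the same medians were -0.37, 0.05 and -0.07. These are descriptions, since the genes were selected on AIRE1 and AIRE-D312A values.

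Interferon-stimulated genes encode antiviral effectors that are induced through the transcription factor complex ISGF3. Of 44 named on the array, 30 were measured, and 3 of these were detected on no AIRE-D312A array. Those 3 passed the detection filter through another line, which partly sets the counts. Of the 30 measured, 13 were higher in AIRE1 (6 without the block), 0 were lower and 17 were not called. The higher share was 43.3%, against 5.93% of all tested genes. By unadjusted p under 0.05 in the same limma fit, 15 were higher and 0 lower, against 12.9% and 10.6% of all tested genes. The list median was 0.25, against 0.00 over all genes. IFI16, a sensor of DNA, stood at 6.78, 6.22 and 6.75 in AIRE1 and at 4.87, 4.46 and 5.08 in AIRE-D312A (1.78 ± 0.17, adjusted p = 6.32e-05). IFITM3, which blocks viral entry, stood at 7.27, 7.17 and 7.0 in AIRE1 and at 5.59, 5.71 and 5.68 in AIRE-D312A (1.49 ± 0.08, adjusted p = 7.52e-07). The antiviral enzyme OAS3 stood at 7.14, 6.77 and 6.63 in AIRE1 and at 5.81, 5.45 and 5.47 in AIRE-D312A (1.26 ± 0.11, adjusted p = 2.76e-05). UBE2L6, the conjugating enzyme for ISG15, was 1.28 ± 0.12 higher (adjusted p = 6.32e-05), but not called without the block (0.069). The arrays of the 2 lines did not overlap for any of these 4 genes. OAS3 was not detected in NC (4.74) and IFI16 neither (4.42), while IFITM3 stood at 6.66 in NC, between the 2 lines. Not every interferon-stimulated gene was higher: ISG15 itself, singled out here after its value was seen, differed by -0.13 ± 0.10 (adjusted p = 0.478).

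Because 13 of these genes were higher, the 250 bases before their start sites were read from the RefSeq promoter table (GRCh38.p14) for letters of the interferon-stimulated response element: GAAA, any 2 bases and GAAA again, on either strand. Of the 30 genes, 26 matched an entry by symbol, and for a gene with several starts the one with most matches was taken. The letters occurred in 7 of 10 higher genes and in 10 of 16 genes that were not called. They occurred in 3.02% of all 35116 entries. That share counts each entry on its own, so it is not the same measure as the best start per gene. The following stretches are shown 5′ to 3′ on the strand of the gene, with matches in capitals: those of IFITM3 (chr11:320861-321110, minus strand) and OAS3 (chr12:112938224-112938473, plus strand), which were higher in AIRE1, and that of ISG15 (chr1:1013247-1013496, plus strand), which was not called.
IFITM3: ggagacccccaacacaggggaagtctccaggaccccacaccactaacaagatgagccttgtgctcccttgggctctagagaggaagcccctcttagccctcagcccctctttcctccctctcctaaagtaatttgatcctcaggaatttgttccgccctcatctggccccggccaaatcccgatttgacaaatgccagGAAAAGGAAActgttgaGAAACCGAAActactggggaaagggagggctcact
OAS3: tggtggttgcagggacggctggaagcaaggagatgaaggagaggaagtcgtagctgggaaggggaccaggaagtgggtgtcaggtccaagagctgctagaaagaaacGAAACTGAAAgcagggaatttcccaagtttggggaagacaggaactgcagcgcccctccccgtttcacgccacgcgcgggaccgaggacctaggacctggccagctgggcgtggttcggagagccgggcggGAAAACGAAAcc
ISG15: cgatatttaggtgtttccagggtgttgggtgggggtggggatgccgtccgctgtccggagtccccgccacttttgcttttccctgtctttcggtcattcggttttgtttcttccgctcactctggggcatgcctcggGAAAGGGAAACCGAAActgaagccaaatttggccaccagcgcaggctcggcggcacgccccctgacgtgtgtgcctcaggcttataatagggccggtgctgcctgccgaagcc
Each of the 3 holds 2 matches, which in ISG15 overlap. A match is a description of the letters only.

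Antigen presentation genes carry or trim peptides for T cells. Of 22 measured, 8 were higher in AIRE1 (36.4%, 2 genes without the block) and 1 was lower (4.55%), with a list median of 0.25. Over all tested genes the shares were 5.93% and 3.87%, and 1.57% and 0.778% without the block. The class II chain gene HLA-DRA stood at 5.96, 5.55 and 6.42 in AIRE1 and at 4.76, 4.43 and 5.23 in AIRE-D312A (1.17 ± 0.12, adjusted p = 8.21e-05). It was not detected in NC (4.44) and stood at 4.87 in AIRE2. HLA-DRB4 and HLA-DPA1 were each 0.48 ± 0.09 higher, and neither was called without the block (adjusted p = 0.553 and 0.606). The class I light chain B2M stood at 12.15, 11.94 and 12.25 in AIRE1 and at 11.41, 11.37 and 11.63 in AIRE-D312A. It was 0.64 ± 0.07 higher (adjusted p = 0.000175) and lies within a chromosome 15 stretch described below in which 102 of 194 genes were higher. ERAP2, a peptidase that trims class I peptides, was lower at 7.51, 7.30 and 7.46 in AIRE1 and 8.23, 8.03 and 8.22 in AIRE-D312A (-0.74 ± 0.07, adjusted p = 3.96e-05).

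The TNF receptor family, which includes receptors used between thymocytes and thymic epithelium, held large differences in both directions. Of 14 measured members, 3 were higher and 2 lower (2 and 1 without the block). These shares of 21.4% and 14.3% stand against 5.93% and 3.87% of all tested genes. TNFRSF14, the receptor for the ligand LIGHT, stood at 6.90, 6.56 and 6.84 in AIRE1 and at 4.53, 4.40 and 4.73 in AIRE-D312A (adjusted p = 1.21e-06), with 5.36 in AIRE2 and 4.71 in NC. LTBR, the lymphotoxin beta receptor, stood at 6.27, 6.05 and 5.71 in AIRE1 and at 4.38, 4.30 and 4.45 in AIRE-D312A. It was at least 2.17-fold higher in AIRE1 (adjusted p = 1.04e-05), and AIRE2 (6.99) and NC (6.80) lay above both. TNFRSF11B, the decoy receptor osteoprotegerin (0.34 ± 0.08), and TNFRSF12A, the TWEAK receptor (-0.38 ± 0.09), were called with the block only (adjusted p without it 0.334 and 0.217).

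Of 18 measured simple epithelial adhesion and keratin genes, 9 were higher (3 without the block) and 2 lower in AIRE1, with a median of 0.37. That is 50% and 11.1%, against 5.93% and 3.87% of all tested genes. Keratins 8 and 18 form filaments as partners, and their transcripts differed in opposite directions. KRT8 stood at 8.04, 7.60 and 8.0 in AIRE1 and at 6.45, 6.16 and 6.34 in AIRE-D312A (1.56 ± 0.13, adjusted p = 2.67e-05). KRT18 stood at 6.26, 6.69 and 6.29 in AIRE1 and at 7.28, 7.80 and 7.58 in AIRE-D312A (-1.14 ± 0.08, adjusted p = 5e-06), and its second probe gave -0.78. In NC the levels were 7.12 for KRT8 and 6.79 for KRT18, between the 2 lines in both cases. The KRT8 and KRT18 probes may also read processed copies of these genes. The tight junction gene CLDN1 was 1.43 ± 0.15 higher, CLDN3 0.76 ± 0.13, and the vesicle gene RAB25 1.04 ± 0.22, which was not called without the block (adjusted p = 0.173) or without AIRE1 replicate 3, AIRE-D312A replicate 1 or AIRE-D312A replicate 3. EPCAM, an adhesion molecule, was lower (-0.66 ± 0.13, adjusted p = 0.0057, and 0.166 without the block).

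Mesenchymal and matrix genes moved both ways: of 36 measured, 7 were higher and 5 lower (3 and 2 without the block), with a median of 0.00. Called shares were 19.4% and 13.9%, against 5.93% and 3.87% of all tested genes. The matrix genes THBS2 (1.93 ± 0.15), SPARC (1.52 ± 0.15) and decorin, DCN (1.26 ± 0.18), and the smooth muscle actin gene ACTA2 (0.86 ± 0.18) were higher, DCN and ACTA2 only with the block (adjusted p without it 0.146 and 0.575). THBS2 stood at 7.75, 7.68 and 7.85 in AIRE1 and at 5.54, 5.83 and 6.12 in AIRE-D312A. The growth regulator CCN3 (-1.09 ± 0.15), vimentin, VIM (-0.96 ± 0.14), the repressor ZEB2 (-0.77 ± 0.08) and tenascin, TNC (-0.68 ± 0.12), were lower. TNC was not called without the block (adjusted p = 0.582). VIM, at 11.40, 10.97 and 11.75 in AIRE1 and 12.37, 12.15 and 12.50 in AIRE-D312A, was not called without the block (adjusted p = 0.114).

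Detoxification and retinoid genes were among the lists with most calls, 9 higher and 5 lower of 29 measured (4 and 1 without the block), at a median of 0.02. Called shares were 31% and 17.2%, against 5.93% and 3.87% of all tested genes. ALDH1A1, which makes retinoic acid, stood at 7.40, 6.42 and 7.02 in AIRE1 and at 4.95, 4.83 and 5.06 in AIRE-D312A (2.00 ± 0.21, adjusted p = 0.000109). The retinoic acid binding protein CRABP2 was 1.47 ± 0.25 higher with the block and not called without it (adjusted p = 0.354). AKR1C3 (1.28 ± 0.12) and AKR1C4 (1.14 ± 0.11), aldo-keto reductases of steroid metabolism, were higher, and their probes may read near-identical relatives. Lower were the retinoic acid receptor RARB (-0.64 ± 0.08), the oxidase CYP1B1 (-0.58 ± 0.10), and DHRS3 (-0.36) and RDH10 (-0.34), 2 enzymes that interconvert retinol and retinal, the last 3 with the block only.

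Genes of other tissues were mostly undetected. Of 28 thymic tissue-restricted antigens named on the array, 9 were measured, and 4 of these were higher (2 without the block) and 0 lower. They were the myelin gene MBP (0.94 ± 0.13, adjusted p = 0.000714), the bone protein gene SPP1 (at least 1.53-fold, adjusted p = 0.000533), S100A8 (at least 1.16-fold) and somatostatin, SST (at least 1.01-fold). A second, dimmer MBP probe past the detection filter gave 0.22. SPP1, S100A8 and SST were detected on no AIRE-D312A array and passed the detection filter through lines where they were higher. The share of measured members that were higher (44.4%, against 5.93% of all tested genes) is therefore partly set by that filter. Of 10 measured cancer-testis and germ cell genes, of 42 named on the array, 3 were higher with or without the block, SPANXC (at least 1.31-fold), TEX14 (0.64 ± 0.09) and PRAME (0.59 ± 0.07). Of the 10, 2 were detected on no AIRE-D312A array, among them SPANXC, which passed the detection filter through lines including AIRE1. The share of this list that was higher is therefore also partly set by the filter. SPANXC shares near-identical copies. Of 7 measured APECED autoantigens, of 31 on the array, 1 was called, the potassium channel regulator KCNRG (0.34 ± 0.10, adjusted p = 0.0488, and 0.156 without the block).

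Markers of cell types that a HEK293 culture should lack were read beside these genes. Of 27 haematopoietic and globin genes on the array, 11 were detected on all AIRE1 arrays and 8 on all AIRE-D312A arrays, and their summed linear level was 1513 to 1753 in AIRE1 and 1451 to 1603 in AIRE-D312A. Of 14 measured, 4 were higher (28.6%, against 5.93% of all tested genes, and 3 genes without the block), 0 lower and 10 not called. Their median was -0.01. Besides HBG1 and HBG2, the coreceptor CD8A (detected on 2 of 3 AIRE1 arrays, at least 1.02-fold) and the globin gene HBD (at least 1.08-fold) were higher, HBD with the block only (adjusted p = 0.147 without it). All 4 were among 5 measured members detected on no AIRE-D312A array. They passed the detection filter through other lines, so the count of higher genes is partly set by the filter. Of 10 endothelial markers, VWF, the von Willebrand factor gene, was the only one detected on all AIRE1 arrays and none was on all AIRE-D312A arrays (sums 257 to 273 against 229 to 242). VWF, named after its value was seen, was at least 1.75-fold higher in AIRE1 (adjusted p = 1.61e-05). Muscle markers were detected on all arrays for 5 genes in AIRE1 and 3 in AIRE-D312A of 22, and liver and pancreas markers for 8 and 9 of 27. The epidermal and medullary thymic list had 6 and 4 of 26. The part of other cells in these results was not tested, and in a bulk measurement more cells with a transcript and more transcript per cell cannot be told apart.

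Developmental regulators moved in both directions. Of 24 measured kidney and mesoderm regulators, 1 was higher and 5 lower (1 and 1 without the block), with a median of -0.17. That is 4.17% and 20.8%, against 5.93% and 3.87% of all tested genes. The basic helix-loop-helix factor HAND1 (-0.74 ± 0.12), PRDM8 (-0.63 ± 0.10), MSX2 (-0.47 ± 0.13) and the nephron progenitor factor SIX2 (-0.47 ± 0.08) were lower, and FOXD1, a factor of kidney stroma, was higher (0.49 ± 0.09). HAND1, PRDM8 and MSX2 were not called without the block (adjusted p = 0.33, 0.0697 and 0.192). Of 24 HOX genes, which set positional identity, 3 were higher (12.5%) and 5 lower (20.8%), at a median of -0.11. Without the block 2 were higher and 1 lower. The neighbours HOXD10 and HOXD11 were higher, HOXD10 at 9.03, 8.96 and 8.89 in AIRE1 and 8.32, 8.25 and 8.32 in AIRE-D312A (0.66 ± 0.08, adjusted p = 0.000294) and HOXD11 by 0.71 ± 0.14 (adjusted p = 0.00666). HOXB8 (-0.62), HOXC4 (-0.50), HOXC8 (-0.42) and HOXB6 (-0.33) were lower, of which HOXC4 was also called without the block (adjusted p = 0.0359). With median centring 1 HOX gene and 2 kidney and mesoderm regulators were lower.

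Calls in the signalling lists are set beside the shares over all tested genes, 5.93% higher and 3.87% lower. Of 37 WNT pathway genes, 4 were higher (10.8%) and 7 lower (18.9%), against 0 and 2 without the block. Cyclin D1, CCND1, stood at 9.71, 9.86 and 9.98 in AIRE1 and at 10.59, 10.82 and 10.63 in AIRE-D312A (-0.83 ± 0.09, adjusted p = 0.000134). The pathway inhibitor NKD2 (-0.65 ± 0.07), MYC (-0.49 ± 0.09) and WNT5A (-0.45 ± 0.07) were lower, and WNT3A (0.53), the inhibitors DKK1 (0.44) and RNF43 (0.43) and WNT2B (0.41) were higher. NKD2 lies in a chromosome 5 stretch described below in which 60 of 96 genes were lower. The list's median was -0.07, and 0.04 with median centring. Of 33 TGF-beta and BMP genes, the nodal antagonists LEFTY2 (1.28 ± 0.11) and LEFTY1 (at least 1.11-fold) and the inhibitory SMAD7 (0.86 ± 0.10) were higher and BMP6 was lower (-0.63 ± 0.09). These made up 9.09% higher and 3.03% lower, near the shares over all tested genes. In the list of 26 ERK feedback and immediate early genes 0 were higher and 3 lower (11.5%, 0 without the block), MYC, EGR1 (-0.48 ± 0.07) and SPRY1 (-0.42 ± 0.11). Of 19 growth hormone, insulin and IGF genes, 4 were higher and 4 lower (21.1% each, 0 and 1 genes without the block). Among the lower were the receptor gene GHR (-0.86 ± 0.12, in a chromosome 5 stretch) and IGFBP5 (-0.80 ± 0.14). Of 11 cytokines and chemokines, 4 were higher (36.4%, 1 gene without the block), led by IL15, a growth factor of lymphocytes (0.85 ± 0.11, adjusted p = 0.000533). Only 11 of 33 such genes on the array were measured, and 2 of the 4, CX3CL1 and IL23A, were detected on no AIRE-D312A array. IL23A was detected only on the 3 AIRE1 arrays and so passed the detection filter through AIRE1 alone, where it was higher. CX3CL1 passed it through a line other than AIRE-D312A. The count of higher cytokines and chemokines is therefore partly set by the filter.

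AIRE's own machinery was examined in 3 lists. Of 36 measured proteins known to bind or act with AIRE, 1 was called, the SUMO ligase PIAS1 on chromosome 15 (0.37 ± 0.08, adjusted p = 0.00978, and 0.053 without the block), and the median was 0.01. Of 32 readers and modifiers of H3K4 and H3K27, limma called 0 in either direction with or without the block (median 0.03). At an unadjusted p under 0.05, 1 was higher and 1 lower, against 12.9% and 10.6% of all tested genes, and all 32 differences lay between -0.26 and 0.21. Leaving out single arrays gave at most 1 lower call in this list. Of 7 measured relatives with a SAND domain, SKI was higher (0.38 ± 0.10) and DEAF1 lower (-0.35 ± 0.08), both with the block only. Core histone genes were higher for 6 of 25 (24%) and lower for 0 (2 higher without the block), with a median of 0.07. Over all tested genes 5.93% were higher and 3.87% lower. H2AC18 (0.90 ± 0.10), H2AJ (0.73 ± 0.11), H2BC11 (0.72 ± 0.10) and H2AC20 (0.72 ± 0.15) led, and probes of near-identical histone genes may read each other.

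**Figure D3:**
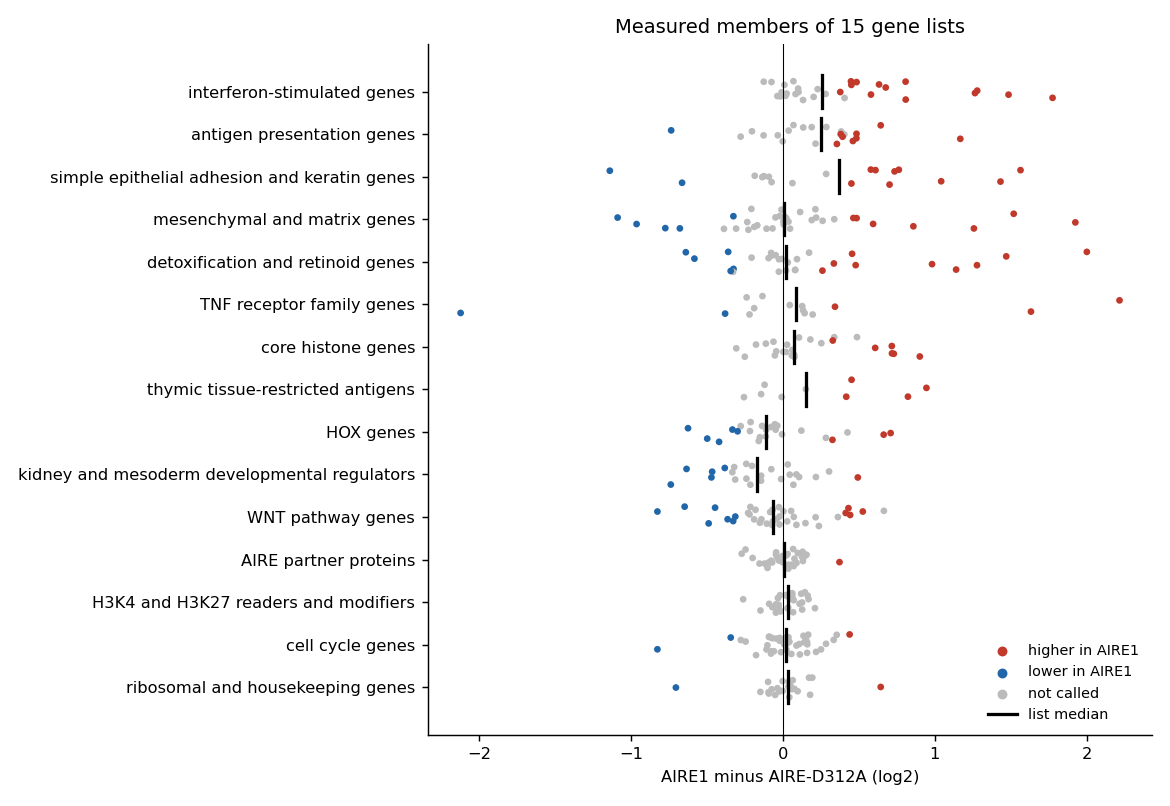
AIRE1 minus AIRE-D312A (log2) of each measured member of 15 gene lists, red where higher, blue where lower and grey where not called, with the list median as a black bar. Interferon-stimulated genes have 13 higher and 0 lower members, TNF receptor family genes span fitted values of -2.12 to 2.22, and the AIRE partner and H3K4 and H3K27 lists lie around 0 with 1 and 0 called members.

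Other lists had few calls, to be read against 5.93% higher and 3.87% lower over all tested genes. Of 43 cell cycle genes, 1 was higher (CCNB2, 0.44, on chromosome 15) and 2 lower (CCND1 and CDK6, -0.34), against 1 and 1 without the block. Of 23 ribosomal and housekeeping genes, B2M was higher and SDHA lower (-0.70 ± 0.07), and both lie in the stretches described next. The unfolded protein list had 0 higher and 1 lower of 31 (PYCR1, -0.41), and hypoxia and glycolysis 1 higher of 34 (SLC2A3, 0.97 ± 0.13), neither called without the block (adjusted p = 0.0718 and 0.0561). Of 26 cholesterol and fatty acid synthesis genes, 3 were lower (HMGCS1, -0.55, PMVK, -0.41, and DHCR7, -0.36), of which PMVK was called without the block. HMGCS1 lies in the same chromosome 5 stretch as SDHA. Of 30 p53 target and apoptosis genes, 4 were higher and 1 lower (1 and 0 without the block), with GADD45B at 0.79 ± 0.08 and BCL2 at -0.33 ± 0.09. Of 21 neuronal and filament genes, 4 were higher and 2 lower (0 and 1 without the block), with STMN2 at 1.09 ± 0.17 and GPM6B at -0.63 ± 0.07. In the lipid list apolipoprotein E, APOE, stood at 7.44, 6.92 and 7.70 in AIRE1 and at 5.87, 5.19 and 6.19 in AIRE-D312A (1.60 ± 0.14, adjusted p = 3.2e-05, and 0.0755 without the block).

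The share of called genes differed between chromosomes. On chromosome 15, 148 of 394 tested genes were higher in AIRE1 (37.6%) and 2 lower, and on chromosome 6, 82 of 664 were higher (12.3%). On chromosome 5, 121 of 530 were lower (22.8%) and 11 higher. On the remaining chromosomes, with 160 genes of unknown place included, 467 of 10359 genes were higher (4.51%) and 327 lower (3.16%). Together chromosomes 5, 6 and 15 held 241 of the 708 higher and 135 of the 462 lower genes, but 12 of the 67 genes at least 2-fold higher and 3 of the 18 at least 2-fold lower.

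**Figure D4:**
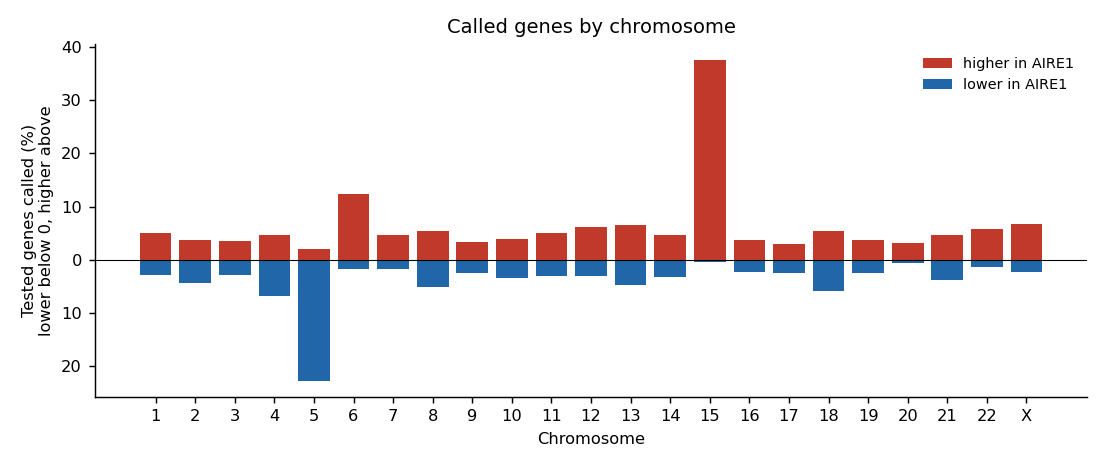
Percent of tested genes on each chromosome that were higher in AIRE1 (red, above 0) or lower (blue, below 0). Chromosome 15 reaches 37.6% higher, chromosome 6 12.3% higher and chromosome 5 22.8% lower, against 4.51% and 3.16% over the other chromosomes together.

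Runs of neighbouring genes were marked where the median over 25 genes in RefSeq order was at least 0.25 in size, a rule chosen after the chromosome counts were seen. From CCDC127 to FST at the start of chromosome 5, 60 of 96 genes were lower and 1 higher, with a median of -0.41 and medians of -0.44, -0.38 and -0.42 in the 3 pairs of arrays. Relative to NC the same genes had a median of -0.38 in AIRE1, -0.03 in AIRE-D312A and 0.03 in AIRE2. The exocyst gene EXOC3 (-0.77 ± 0.07) and the acyltransferase gene ZDHHC11 (-1.01 ± 0.10) belong to this stretch. The exception was CDH10, a cadherin gene, which was detected on all AIRE1 arrays and no AIRE-D312A array and was at least 2.19-fold higher. Further along, 10 of 29 genes from SEMA6A to RAPGEF6 and 8 of 28 from FGFR4 to CANX were lower, with medians of -0.25 and -0.26. In those runs AIRE1 had medians of -0.07 and -0.02 relative to NC and AIRE-D312A of 0.19 and 0.27.

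On chromosome 6, 38 of 92 genes from FKBP1C to CRYBG1 were higher (median 0.31), with medians relative to NC of 0.09 in AIRE1, -0.21 in AIRE-D312A and -0.19 in AIRE2. ADGRB3, an adhesion receptor of the brain, stood out at 6.26, 6.12 and 6.50 in AIRE1 and at 4.67, 4.52 and 5.01 in AIRE-D312A (1.56 ± 0.08, adjusted p = 7.52e-07), and no NC array detected it. On chromosome 15, 102 of 194 genes from KATNBL1 to SMAD3 were higher (median 0.33), and the medians relative to NC were 0.03 in AIRE1, -0.28 in AIRE-D312A and -0.32 in AIRE2. COXFA4L3 (1.67 ± 0.16), ITPKA, an inositol trisphosphate kinase (0.76 ± 0.09), and CCPG1, a receptor for autophagy of the endoplasmic reticulum (0.73 ± 0.07), belong to it. Also higher were 8 of 28 genes from RPLP1 to CSK and 11 of 25 from MINAR1 to UBE2Q2P1. Against the direction of their runs were TBX18 (-0.32) on chromosome 6 and MEIS2 (-0.44) and TNFAIP8L3 (-0.26) on chromosome 15, named after their values were seen. The runs held 160 of the higher genes (22.6%) and 81 of the lower genes (17.5%). DNA copy number was not measured here, and its part in these runs was not tested. When the genes of chromosomes 5, 6 and 15 were left out and the others refitted, 410 were higher and 278 lower.

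**Figure D5:**
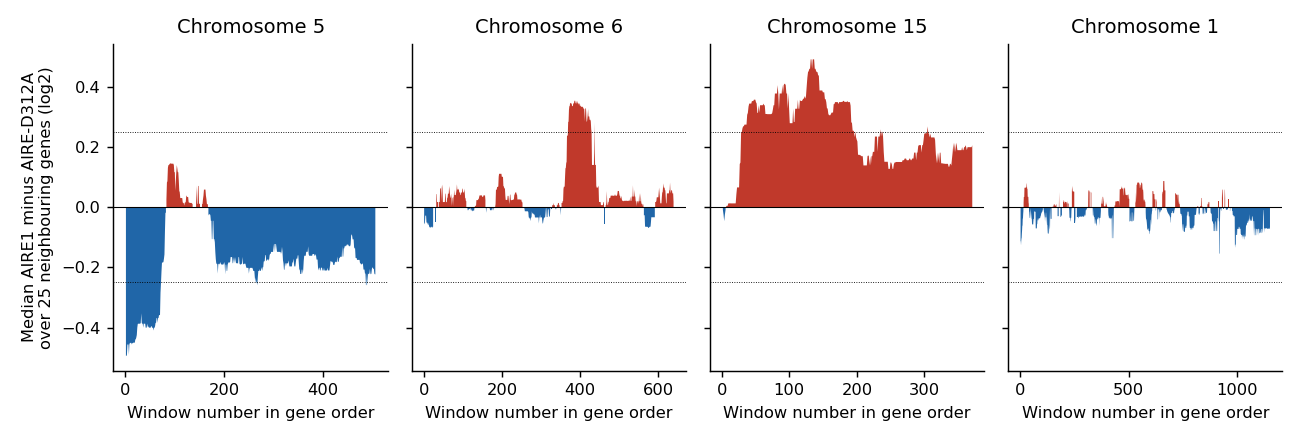
Median AIRE1 minus AIRE-D312A (log2) over 25 neighbouring genes, against the window's number in gene order, on chromosomes 5, 6, 15 and, for comparison, 1. Dotted lines mark 0.25 and -0.25. The start and later parts of chromosome 5 reach -0.25, and parts of chromosomes 6 and 15 reach 0.25, while no window of chromosome 1 reaches either line.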

How the data were processed

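Total RNA of 4 HEK293 lines was measured on 12 Illumina bead arrays, 3 independent experiments per line. The deposited values are linear bead intensities per probe, and per the submitters' processing notes BeadStudio 3.1.3.0 was used; no background subtraction is recorded, and none had been made as far as the values show. The deposited detection p-value of each probe, per the file headers, compares it with the negative controls of its array. For AIRE-D312A replicate 3 this column was identical to that of AIRE1 replicate 3, so its negative-control mean was predicted from the 40th percentile of its intensities. Tried on the other 11 arrays, the predicted limit left 98.86% to 99.93% of probes with an unchanged detection call.

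Background was removed with limma's normexp method from negative-control means and SDs inferred from the detection values (offset 16), and the arrays were quantile-normalised over 12 arrays and put on the log2 scale with limma 3.58.1 in R 4.3.3. A probe was kept if some line had it detected (p under 0.01) in each of its 3 experiments, and the brightest probe stood for its gene. The 48701 probes comprised 24782 with 1 gene symbol, 0 with several and 23919 with none. Symbols were updated through RefSeq (GRCh38.p14), which matched 24154 probes and was otherwise used only for gene order and promoter sequences. The limma fit held 4 line means and the replicate number as a block. Deviations from the line means of same-numbered AIRE1 and AIRE-D312A arrays correlated at 0.386, 0.746 and 0.752 (numbers 1 to 3), and their differently numbered arrays at -0.668 to -0.026. The deviations sum to 0 within a line, so positive values for same-numbered arrays push the others below 0. The negative values are therefore no separate support for the pairing. Over all pairs of lines same-numbered arrays correlated at 0.332 to 0.848 and differently numbered ones at -0.743 to 0.529, so these ranges overlap, with AIRE2 replicate 1 nearer to AIRE1 replicate 3 (0.489) than to AIRE1 replicate 1 (0.401). The numbers come from the deposited array labels. What they share was not stated in the sources used here.

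"At least" folds set the brighter line's mean against, per array of the dimmer line, the lowest detected signal or the probe's own if higher. Named genes were AIRE, the 20 largest called differences per direction, up to 4 called genes per list and direction, up to 5 by lower-bound fold and up to 6 per run. The comparison, gene lists and rules were chosen with earlier results of these data known. The fit was tested on simulated data that contained replicate effects, so this was no test of the block itself. Alternatives covered the block, arrays, background, normalisation, filters, probes, variance prior and the authors' table of 1 value per line. Python 3.11.15, pandas 2.3.3 and matplotlib 3.10.9 served for tables and plots.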

Additional observations from a re-analysis of the deposited data

How the results depend on the processing

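Without the replicate block limma called 187 genes higher and 93 lower, and the AIRE difference of 0.59 was not called (adjusted p = 0.141). With only the 6 AIRE1 and AIRE-D312A arrays in the fit the counts were 1350 and 985, and with only these normalised and fitted 1321 and 957. Median centring gave 104 lower genes; limma then used 1 common variance for all genes. Without the genes of chromosomes 5, 6 and 15, an alternative chosen after seeing the data, fewer genes were tested and 410 were higher and 278 lower. Leaving out arrays or replicate numbers gave 191 to 641 higher and 100 to 358 lower genes, and an AIRE difference of 0.49 to 0.68. The lowest counts came without replicate 3 in all lines. Genes past 2-fold numbered 27 higher and 4 lower without background correction, and 25 and 4 with normexp run without negative controls at an offset of 50. Among probes detected on all 6 arrays, 31 were at least 2-fold higher. At a detection p under 0.05, 58 genes were detected in AIRE1 but not AIRE-D312A, and 3 in AIRE-D312A but not AIRE1. Where the change is not one of fewer genes or samples, the cause was not tested. Of 196 named genes, 94 were called without the block, 131 in every setting with 1 array left out and 77 in every setting run. The authors' table, with 1 value per line and no test, moved 87 of the 195 besides AIRE by more than the spread between replicates. None of the 195 reversed in any setting run. Median centring changed the sign of 8 of 39 list medians, all within 0.1 of 0, among them WNT (-0.07 with quantile normalisation, 0.04 with median centring) and SAND (-0.03 and 0.05). Dim genes, near the detection floor, are limited by signal over background.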
